A study of Mus musculus with 15 samples.

Results

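The decline of pluripotency was followed with 7 genes, of 38295 in the deposited matrices, in whole mouse embryos from E6.0 to E7.75. The genes were *Pou5f1*, *Nanog*, *Utf1*, *Pou3f1*, *L1td1*, *Pim2* and *Slc7a3*. They were chosen by name, with earlier results of these data known. The questions were how fast each was lost in control embryos, which cells kept it, and whether it persisted in embryos without *Mesp1*. All 7 were detected in every embryo and passed the filter on low counts in every whole-embryo comparison.

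Pluripotency is the capacity of a cell to form every tissue of the embryo proper. In the mouse it is held by the epiblast, the cell layer that enters the primitive streak at gastrulation, and it is lost as cells become ectoderm, mesoderm or endoderm. *Pou5f1* (Oct4) and *Nanog* encode transcription factors of its core network, *Utf1* a chromatin-associated protein, *Pou3f1* (Oct6) a POU factor of the epiblast that is used again in neural tissue, and *L1td1* an RNA-binding protein. *Pim2* encodes a serine/threonine kinase and *Slc7a3* a transporter of cationic amino acids, and both are highly expressed in pluripotent cells. *Mesp1* encodes a basic helix-loop-helix factor that is switched on as mesoderm leaves the streak and is needed for cardiac mesoderm.

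Single-cell RNA-seq libraries were made from 15 whole embryos, 1 library per embryo, with 12 controls and 3 *Mesp1* knockout (KO) embryos of strain C57/BL6. Controls carried at least 1 wild-type *Mesp1* allele, as *Mesp1* Cre/+ or wild type, and KO embryos were *Mesp1* Cre/Cre, in which the Cre knock-in disrupts the gene. The embryos also carried the *Smarcd3*-F6::eGFP enhancer reporter and, except in some controls, the Ai14 Cre reporter at *Rosa26*. Early controls were 3 embryos at E6.0, 1 at late E6.0 and 1 at E6.5, middle controls 1 embryo at each of E7.0, late E6.5 and early E7.5, and late controls 2 at late E7.5 and 2 at E7.75. The KO embryos were 1 each at E6.5, E7.0 and late E7.5, so that a KO effect at any one stage rests on 1 embryo.

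After filtering, 93701 of 99474 barcodes were kept, with 7383353 to 358439911 unique molecular identifiers (UMIs, counts of distinct RNA molecules) per library in the kept cells. The loss was uneven. At E6.0, 1497 of 1603, 288 of 432 and 255 of 623 barcodes were kept in replicates 1 to 3, and 531 of 901 at late E6.0. The late controls kept 6768 of 7099, 22277 of 23141, 14884 of 14909 and 13414 of 14219. Whether this uneven loss moved the levels was not tested. *Mesp1* itself had 0, 1 and 5 UMIs in the 3 KO libraries, against 282 to 16093 in controls. The library titles start with a code that ends in a number from 4 to 8, called the experiment number here. The late KO embryo and E7.75 control replicate 1 were the only libraries of experiment 5. Their median of 3827 and 3926 UMIs per cell lay under that of every other library (14063 to 34415). Ribosomal protein genes took 32.9% and 33.1% of their UMIs, against 13.2% to 23.3% in the other libraries. Whether this moved the CPM of other genes was not tested. The processed pseudogene *Rps2-ps13* stood at 2186 to 2793 CPM (UMIs of a gene per 1000000 UMIs of the embryo) in 4 controls (E6.0 replicate 3, late E6.0, late E6.5 and late E7.5 replicate 1), and the main counts were also taken without them. Any pair of libraries shared at most 3.80% of the smaller library's barcodes.

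Promoters are shown for the members of which the sequence holds letters recognised by the Pou5f1 protein itself. The RefSeq table for GRCm38.p6, 250 bases before to 50 after each start, had entries for 5 of the 7 members (*Pou5f1*, *Nanog*, *Utf1*, *L1td1* and *Pim2*). The search took 3 strings on both strands, the octamer ATGCAAAT, its core ATGCAAA, which every octamer contains, and a composite of a Sox site and the octamer core on the same strand, the Sox-Oct composite, whose letters were set with the *Nanog* promoter known. Capitals mark the matches. *Nanog* (chr6:122707239-122707538, plus strand) held the composite, on the opposite strand and 75 bases before the start site of this entry (151 before the other *Nanog* start in the table), and *Pim2* (chrX:7878056-7878355, plus strand) held 2 octamers and 1 further core.
*Nanog*: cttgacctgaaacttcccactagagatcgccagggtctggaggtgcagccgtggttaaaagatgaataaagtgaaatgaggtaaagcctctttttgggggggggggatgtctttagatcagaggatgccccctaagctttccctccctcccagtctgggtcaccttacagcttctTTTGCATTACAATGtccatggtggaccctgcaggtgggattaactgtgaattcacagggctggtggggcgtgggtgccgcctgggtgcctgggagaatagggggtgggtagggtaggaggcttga
*Pim2*: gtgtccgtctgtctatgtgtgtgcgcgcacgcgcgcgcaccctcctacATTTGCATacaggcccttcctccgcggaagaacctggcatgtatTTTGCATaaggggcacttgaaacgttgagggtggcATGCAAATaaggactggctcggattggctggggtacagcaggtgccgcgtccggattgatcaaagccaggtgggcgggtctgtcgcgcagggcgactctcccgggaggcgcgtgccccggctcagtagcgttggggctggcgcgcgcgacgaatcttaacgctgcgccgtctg
Of 32851 promoters in the table, 0.00609% held the composite (2 entries, both *Nanog* starts), 1.74% the octamer and 4.63% its core. None of these letters were in the windows of *Pou5f1*, *Utf1* or *L1td1*. In the gene annotation (GENCODE M21, GRCm38) *Nanog* spans chr6:122707489-122714633, *Pou5f1* chr17:35506018-35510772, *Utf1* chr7:139943789-139945112 and *L1td1* chr4:98726734-98738480, all on the plus strand. *Pou3f1* lies at chr4:124656807-124660655 (plus), *Pim2* at chrX:7878262-7883432 (plus) and *Slc7a3* at chrX:101079210-101086020 (minus).

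In control embryos 6 of the 7 genes passed the test for a fall between E6.0 and E7.75, as did 9.86% of all genes. *Pou3f1* did not pass, although its mean was 29.7 CPM in early and 12.8 CPM in late controls. Levels were taken as CPM of the counts summed over all cells of an embryo. In such sums fewer cells of a type and less RNA per cell cannot be told apart.

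*Pou5f1* stood at 778, 857 and 1320 CPM in the early controls (lowest, median and highest of 5), at 865, 1016 and 393 CPM in the middle controls (late E6.5, then E7.0, then early E7.5), and at 593 and 81.5 CPM in the late E7.5 and 47.1 and 271 CPM in the E7.75 replicates. The step lay after E7.0: every control up to E7.0 was higher than every control from early E7.5 on, as in 4.34% of all 16961 genes tested for age, and the late controls spread over more than an order of magnitude. *Nanog* stood at 21.8, 42.9 and 71.9 CPM in the early controls, at 31.9, 17.5 and 7.13 CPM in the middle controls, and at 15.1 and 2.09 CPM at late E7.5 and 1.05 and 5.48 CPM at E7.75. It was highest in the 3 E6.0 embryos, lower at E6.5 already, and the E7.0 embryo (17.5) lay just above late E7.5 replicate 1 (15.1).

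*Utf1* stood at 314, 376 and 807 CPM in the early controls, at 390, 256 and 123 CPM in the middle controls, and at 67.6, 39.3, 2.97 and 16.9 CPM in the late E7.5 and E7.75 replicates in turn. The early controls lay 14.1-fold above the late ones by their means, the widest ratio of the 7. *Pou3f1* stood at 19.097, 24.6 and 42.8 CPM in the early controls, at 71.4, 29.7 and 32.8 CPM in the middle controls and at 22.3, 7.96, 5.86 and 15.1 CPM in the late controls. Its highest embryo was late E6.5, and it was the one member whose early and late controls overlapped. Of the 16961 genes 8.77% had every early control above every late control.

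*L1td1* stood at 110, 125 and 150 CPM in the early controls, at 135, 93.8 and 42.0 CPM in the middle controls and at 36.3, 29.7, 8.48 and 20.7 CPM in the late controls. *Pim2* stood at 210, 233 and 395 CPM in the early, 270, 318 and 72.5 CPM in the middle and 133, 50.1, 27.6 and 93.6 CPM in the late controls. *Slc7a3* stood at 58.6, 82.9 and 178 CPM in the early, 63.5, 86.6 and 18.3 CPM in the middle and 29.9, 12.96, 10.0 and 24.7 CPM in the late controls. For *Pim2* and *Slc7a3* the early E7.5 embryo already lay among the late controls, for *L1td1* it lay just above them, and E7.75 replicate 1, the shallow library of experiment 5, was the lowest embryo. The mean early-to-late ratios were 5.36 for *L1td1*, 3.55 for *Pim2*, 5.02 for *Slc7a3*, 3.78 for *Pou5f1*, 7.92 for *Nanog* and 2.32 for *Pou3f1*.

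**Figure D1:**
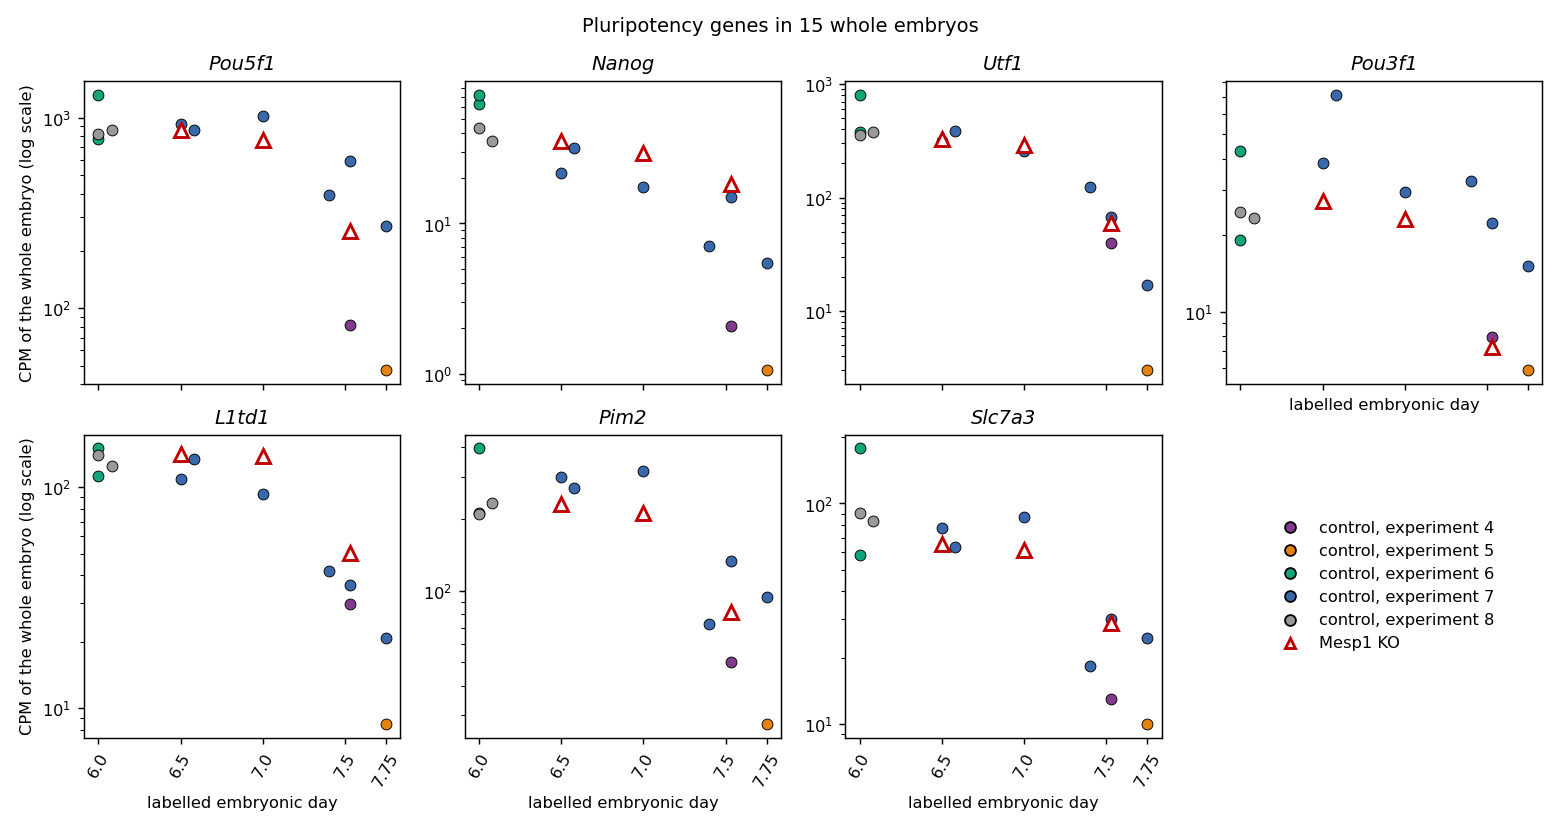
CPM of each gene in the 15 whole embryos (vertical, log scale) against the labelled embryonic day (horizontal), with early and late embryos of one day set slightly apart. Circles are controls, filled by experiment number, and open triangles are KO embryos. The circles drop after E7.0 without overlap for every gene but *Pou3f1*. The late KO triangle lies above all late control circles for *Nanog* and *L1td1*.

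The rate of loss was the slope of log2 CPM on the labelled day over the 12 controls, tested with edgeR's quasi-likelihood test and Benjamini-Hochberg adjustment over 16961 genes. Of these genes 23.6% changed with age, 9.86% fell and 13.8% rose. The slope was -2.23 ± 0.44 log2 per day (SE) for *Utf1* (adjusted p = 0.00317), -1.96 ± 0.31 for *Nanog* (adjusted p = 0.000682), -1.48 ± 0.20 for *L1td1* (adjusted p = 0.000216) and -1.38 ± 0.24 for *Slc7a3* (adjusted p = 0.00138). The slope is that of a straight line and not a constant rate, since the levels did not fall evenly over these days.

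*Pou5f1* fell by 1.14 ± 0.36 log2 per day (adjusted p = 0.0350 by edgeR) and *Pim2* by 1.11 ± 0.27 (adjusted p = 0.0107). *Pou5f1* was at 972 ± 302 CPM (SD, n = 3) at E6.0 and 1016 CPM in the 1 embryo at E7.0, and *Pim2* at 272 ± 106 and 318 CPM. For *Pou3f1* the slope was -0.63 ± 0.32 and did not pass (adjusted p = 0.182). The median slope of the 7 genes was -1.38, beside 0.04 over all genes tested. The *Pou5f1* call was lost in 9 of 22 alternative fits, among them those without E6.0 replicate 1, late E6.0, early E7.5 or either E7.75 embryo and that without the *Rps2-ps13*-rich libraries. In those 9 the slope was -0.92 to -1.49, with adjusted p of 0.0501 to 0.0779, so that the slope moved to either side of its main value. It was -1.11 without E6.0 replicate 1, -1.20 without late E6.0, -1.17 without early E7.5, -0.92 and -1.14 without E7.75 replicates 1 and 2, and -1.49 without the *Rps2-ps13*-rich libraries. The calls of *Nanog* and *L1td1* held in all 22.

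Age and experiment overlapped in part, and the within-experiment slopes come from the 6 controls of experiment 7 (E6.5 to E7.75). There they were -2.54 for *Utf1*, -1.53 for *Nanog*, -1.88 for *L1td1*, -1.46 for *Slc7a3*, -1.16 for *Pou5f1*, -1.45 for *Pim2* and -1.19 for *Pou3f1*. All 7 were negative, and with 6 embryos the edgeR calls of *Nanog* (adjusted p = 0.0480) and *L1td1* (adjusted p = 0.0101) remained, while for *Utf1*, *Slc7a3*, *Pou5f1* and *Pim2* the adjusted p lay between 0.0572 and 0.0786. With experiment as a covariate over all 12 controls the calls of *Nanog* (adjusted p = 0.0159), *L1td1* (0.00118), *Utf1* (0.0215) and *Pim2* (0.0352) held by edgeR. Those of *Slc7a3* (slope -1.44, adjusted p = 0.0918) and *Pou5f1* (slope -1.15, adjusted p = 0.0506) were lost.

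Over the 12 controls the genes were not lost at 1 common rate. Within experiment 7 no difference in rate passed, in a test too small for a single pair to pass alone. In each of the 21 pairs the slope on the day of the difference of both genes in log2(CPM + 1), unweighted, was tested over the 12 controls with a two-sided permutation test of 100000 draws, chosen after the slopes were seen, with Benjamini-Hochberg adjustment over the pairs, and 10 pairs differed. *Utf1* was lost faster than *Pou3f1* (difference -1.93 log2 per day, adjusted permutation p = 0.000420), *L1td1* (-1.03, adjusted permutation p = 0.00420), *Pim2* (-1.35, adjusted permutation p = 0.00493), *Pou5f1* and *Slc7a3*. *Nanog* was lost faster than *Pou3f1* (-1.35, adjusted permutation p = 0.00420) and *Pim2* (-0.78, adjusted permutation p = 0.0207).

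*Pou3f1* had a less negative slope than *Pou5f1*, *L1td1* and *Slc7a3* as well (adjusted permutation p between 0.00994 and 0.0427). *Utf1* and *Nanog*, at the head of the order, did not differ beyond the spread of the embryos (adjusted permutation p = 0.216), nor did *Pou5f1* and *Pim2* (0.326) or *L1td1* and *Slc7a3* (0.616).

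These pair tests did not take experiment into account. The 6 controls of experiment 7 alone were an alternative chosen after seeing the data. There 0 of 21 pairs passed in an exact permutation test over all 720 orders of the days (two-sided, smallest adjusted p = 0.496). Some of these embryos share a labelled day, so fewer orders are distinct. After adjustment over 21 pairs a single pair could not pass alone, however large its difference. The test thus cannot show that the rates are equal. The 10 pairs that passed over the 12 controls kept their sign in experiment 7. The difference between *Utf1* and *Pou3f1* was -1.63 log2 per day (exact permutation p = 0.05, adjusted 0.496), that between *Nanog* and *Pou3f1* -0.34 (adjusted exact permutation p = 0.762) and that between *Nanog* and *Pim2* -0.0090 (adjusted exact permutation p = 0.983). In the edgeR fit of experiment 7 *Utf1* still had the most negative slope, *L1td1* the next, ahead of *Nanog*, and *Pou3f1* (-1.19) lay just below *Pou5f1* (-1.16).

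**Figure D2:**
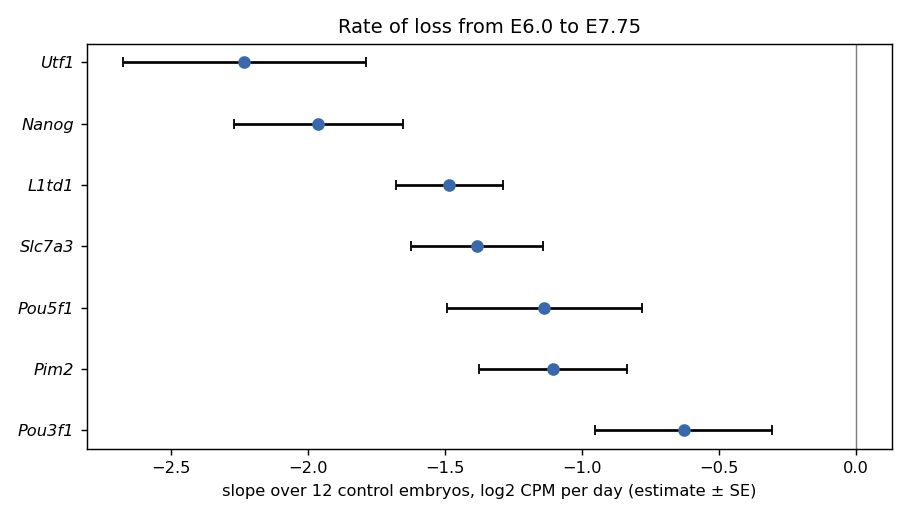
Slope of log2 CPM per day over 12 control embryos for each gene (points, with SE as bars), ordered from fastest to slowest loss. *Utf1* and *Nanog* lie near -2 and *Pou3f1* lies nearest to 0; in experiment 7 alone the order was different below *Utf1*.

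Other genes of the pluripotent state did not all follow. The counts below stand beside the 9.86% of all genes that fell and the 13.8% that rose, and with 7 to 10 genes in a list the counts of 1 or 2 genes describe those genes and not the list. Of 10 general pluripotency genes 5 fell and 1 rose: *Tdgf1*, a co-receptor for Nodal, had the steepest slope (-4.94 log2 per day, adjusted p = 0.000125 by edgeR) and *Dppa4* the next (-2.02), while *Lin28a*, an RNA-binding regulator of *let-7*, rose (0.30, adjusted p = 0.0134). The slope of *Sox2*, the partner of Pou5f1 on DNA, was 0.27 ± 0.21 (adjusted p = 0.396). Of 8 naive pluripotency genes 2 fell, *Zfp42* (-1.54) and *Tbx3* (-0.57). Of 10 formative and primed epiblast genes 5 fell, led by *Fgf5* (-3.44) and *Foxd3* (-2.26), and of 7 primitive streak genes 5 fell, led by *Eomes* (-3.25) and *Gsc* (-2.45). Of 8 early germ cell genes *Prdm14* (-1.42) and *Dnd1* (-0.91) fell and *Kit* rose (0.51).

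The genes with the course most like the 7 were found by Pearson correlation of log2(CPM + 1) with the mean of the z-scored members over the 12 controls. The closest 8 of 16954 genes were *Cxxc5* (r = 0.981), *Zic5*, *Sec14l4*, *Deptor*, *Marveld3*, *Zscan10*, *Chmp4c* and *Vrtn* (r = 0.972). The 12 points share embryos and age with the members, so r describes likeness only. *Vrtn* was at a mean of 85.6 CPM in early and 16.2 CPM in late controls, and *Zscan10* at 48.3 and 18.98 CPM.

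To see which cells kept the genes, cells were clustered without the 7 members, the gene lists and the cell type markers, and clusters were named from the markers. Epiblast-like cells held 69.1% to 82.2% of all *Pou5f1* UMIs in controls up to E7.0, and streak-like cells (primitive streak and mesendoderm) held 12.95% to 21.5%. From early E7.5 on caudal epiblast-like cells held 68.6%, 68.6%, 44.8%, 35.6% and 49.6% in the 5 control embryos in turn, and mesoderm-like cells of the presomitic and paraxial class 12.7% to 20.6%.

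Within the epiblast-like class *Pou5f1* was at 1531 to 2111 CPM in the early controls and, within that range, at 1648 and 1664 CPM at late E6.5 and E7.0. The 31 epiblast-like cells at early E7.5 and 163 at late E7.5 replicate 1 had 917 and 984 CPM. In caudal epiblast-like cells *Pou5f1* was at 1149 CPM at early E7.5, 1174 and 295 CPM at late E7.5 and 105 and 651 CPM at E7.75. The 2 replicates of each late age thus lay apart within this class as they did in the whole embryo.

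Streak-like cells had *Pou5f1* but little *Utf1*, *Slc7a3* or *Pou3f1*. In the 5 early controls *Pou5f1* was at 588 to 1067 CPM in streak-like cells, beside 1531 to 2111 CPM in epiblast-like cells. *Utf1* was at 3.48 to 7.09 CPM in the streak-like and 642 to 1172 CPM in the epiblast-like cells of the same embryos. *Slc7a3* was at 4.21 to 7.47 CPM against 145 to 340 CPM, and *Pou3f1* at 0.498 to 2.63 CPM against 33.5 to 69.0 CPM. *Pim2* (33.8 to 111 against 440 to 710 CPM) and *L1td1* (15.8 to 31.8 against 174 to 254 CPM) lay between, and for these 6 genes the epiblast-like cells lay above with no overlap, as in 8.79% of the 16961 genes. *Nanog* was at 8.03 to 43.9 CPM in streak-like and 38.9 to 162 CPM in epiblast-like cells, which overlapped. These are levels within clusters and were not tested.

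Some members were not limited to the epiblast. *Utf1* stood at 712 to 1356 CPM in extra-embryonic ectoderm-like cells of the early controls and still at 510 and 655 CPM in the late controls that had such cells. *Pou3f1* (51.0 to 179 CPM) and *L1td1* (154 to 206 CPM) were present there too in early controls, while *Slc7a3* was at most 1.11 CPM and *Pou5f1* at most 19.6 CPM. *L1td1* in visceral endoderm-like cells was at 83.8 to 112 CPM in early, 95.2 to 111 CPM in middle and 98.02 to 124 CPM in late controls, and these ranges overlapped. At early E7.5 and late E7.5 replicate 2, 75.9% and 84.8% of all *Utf1* UMIs came from extra-embryonic ectoderm-like cells. The slope of *Pou3f1* passed when extra-embryonic ectoderm-, visceral and parietal endoderm-like cells were left out (-0.69, adjusted p = 0.0496 by edgeR).

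**Figure D3:**
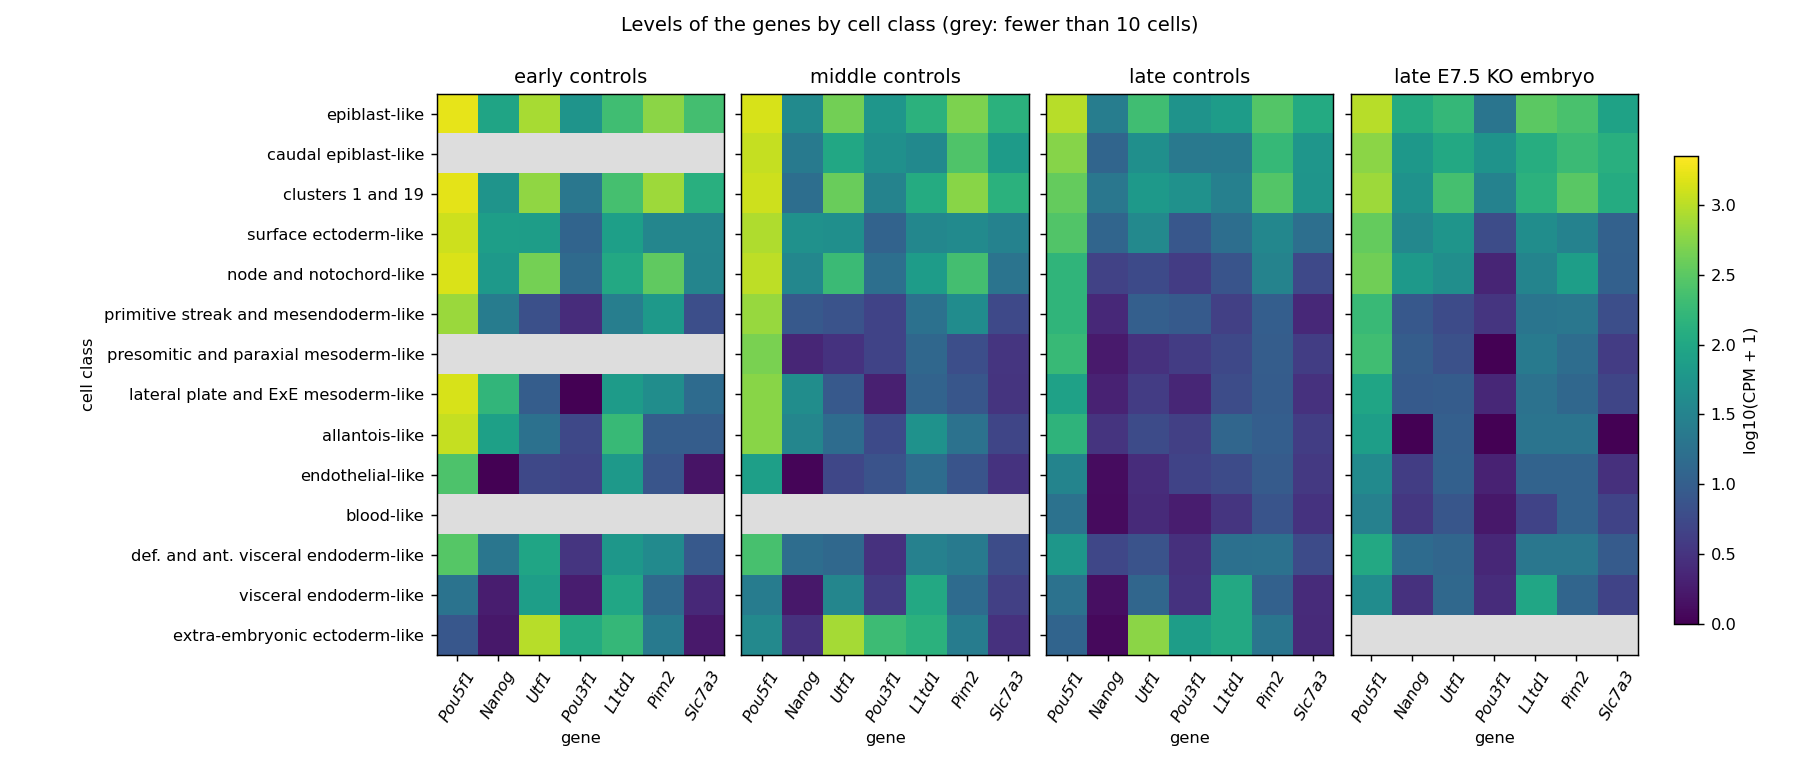
Levels of the 7 genes (columns) in cell classes (rows) as log10(CPM + 1), for the mean of early, middle and late controls and for the late E7.5 KO embryo; grey marks classes with fewer than 10 cells. *Pou5f1* spreads over most embryonic classes in the early and middle panels, *Utf1* is bright in extra-embryonic ectoderm-like cells in every control panel, and *L1td1* is even in visceral endoderm-like cells across panels. The row of clusters 1 and 19 has neural markers in 3 of the 4 late controls, while the late KO cells and the cluster 1 cells of late E7.5 replicate 1 had 4 of the 6 at or near 0. ExE in row labels stands for extra-embryonic.

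The drop between E6.0 and late controls is not split into class sizes and levels within classes, since the classes that held most of the RNA hardly coexisted. Caudal epiblast-like cells numbered 0, 0 and 1 in the E6.0 embryos, and epiblast-like cells 163, 4, 0 and 3 in the late controls.

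Single cells were compared after thinning each cell to 2000 UMIs, which left out 10646 shallower cells. A *Pou5f1* UMI was then found in 51.5% to 64.5% of cells in controls up to E7.0, in 34.3% at early E7.5, 51.6% and 13.95% at late E7.5 and 9.09% and 34.4% at E7.75. Without thinning the shares were 56.3% to 78.6% up to E7.0 and 15.9% to 75.6% from early E7.5 on.

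Cells with a UMI of 3 or more of the 7 genes made up 37.9%, 27.2% and 30.6% of the E6.0 embryos, 29.0% at late E6.0, 25.7% at E6.5, 30.9% at late E6.5 and 26.4% at E7.0. The share was 4.68% at early E7.5, 9.41% and 0.593% at late E7.5, and 0.178% and 3.03% at E7.75. All controls up to E7.0 lay above all later ones. In the KO embryos the share was 24.3% at E6.5 and 23.8% at E7.0, both below the lowest control up to E7.0. Up to E7.0, 82.4% to 94.9% of these cells were epiblast-like, and at early E7.5 and late E7.5 replicate 1, 79.0% and 81.9% were caudal epiblast-like. In blood-like cells, which should lack the genes, the share was 0.0794% at late E7.5 replicate 2.

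**Figure D4:**
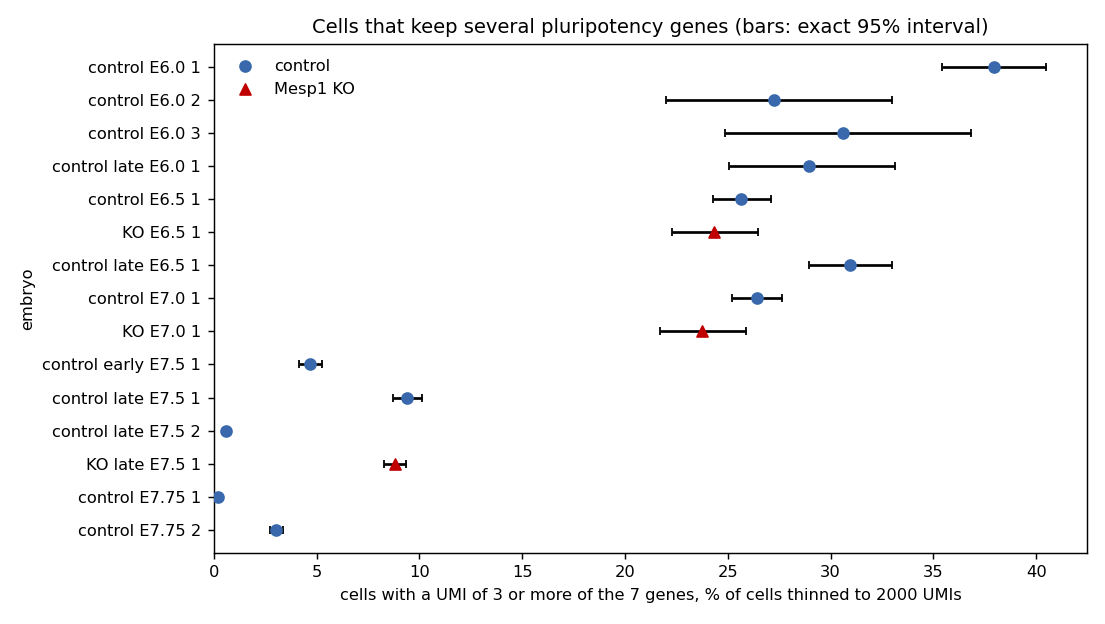
Share of cells (horizontal, %) with a UMI of at least 3 of the 7 genes in each embryo, after thinning to 2000 UMIs; bars are exact 95% binomial intervals, which cover counting error only. The KO embryos at E6.5 (24.3%) and E7.0 (23.8%) lie just below the controls up to E7.0, of which the lowest is 25.7%, and the late KO embryo (8.79%) lies close to late E7.5 replicate 1 (9.41%) and above the other 3 late controls.

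At E6.5 and E7.0 the KO embryos had pluripotency gene levels within or close to the control range. *Pou5f1* was at 861 CPM in the E6.5 and 767 CPM in the E7.0 KO embryo, *Utf1* at 331 and 291 CPM, *Nanog* at 35.5 and 29.5 CPM and *L1td1* at 141 and 139 CPM. At the same ages the controls had 925 and 1016 CPM of *Pou5f1*, 314 and 256 CPM of *Utf1*, 21.8 and 17.5 CPM of *Nanog* and 110 and 93.8 CPM of *L1td1*. *Nanog*, *L1td1* and *Utf1* were thus higher in the KO embryo at both ages, and *Pou5f1* was lower at both. *Pou3f1* (27.2 and 23.2), *Pim2* (231 and 211) and *Slc7a3* (65.4 and 61.6 CPM) lay below the same-age controls.

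None of the 7 passed the edgeR test in the early comparison (log2 differences of -0.53 to 0.18) or the middle one (-0.90 to 0.70), in which 0% of 18290 genes passed. At an unadjusted p under 0.05 there were 403 genes early and 1264 in the middle stage, and DESeq2 called 2 and 23. The E6.5 and E7.0 KO libraries belong to experiment 8, whose controls were E6.0 replicate 3 and late E6.0. Against late E6.0 the log2 ratio of *Nanog* was -0.01 in the E6.5 and -0.27 in the E7.0 KO embryo, and that of *L1td1* was 0.17 and 0.14. These controls were younger than the KO embryos.

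Definitive and anterior visceral endoderm-like cells held 24.7% and 30.6% of all *Nanog* UMIs in the E6.5 and E7.0 KO embryos, against 1.24% to 11.01% in controls up to E7.0. The level of *Nanog* in this class was 44.2 and 41.9 CPM in these KO embryos and 12.6 to 27.2 CPM in controls up to E7.0, with no overlap, as in 2.82% of the 14556 genes tested in this class. After thinning, the share of the class with a *Nanog* UMI did overlap, at 6.63% and 8.12% in the KO embryos and 2.19% to 10% in these controls (1 to 17 cells with a UMI each). The class itself made up 20.6% and 24.3% of the cells of the KO embryos, against 4.17% to 12.7% in these controls. With 1 KO embryo at each age this is a description.

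At late E7.5 the KO embryo had *Nanog* and *L1td1* above all 4 late controls, as it had 9.81% of all 18290 genes tested, and *Pou5f1*, *Utf1*, *Pim2* and *Slc7a3* within their range. *Nanog* was at 18.4 CPM in the late KO embryo and at 15.1, 2.09, 1.05 and 5.48 CPM in late E7.5 replicates 1 and 2 and E7.75 replicates 1 and 2. *L1td1* was at 50.4 CPM against 36.3, 29.7, 8.48 and 20.7 CPM. *Pou5f1* was at 254 CPM, below late E7.5 replicate 1 (593) and E7.75 replicate 2 (271) and above the other 2, and *Utf1* at 59.7 CPM was second to late E7.5 replicate 1 (67.6). The late KO embryo had under 10 extra-embryonic ectoderm-like cells, while such cells held most of the *Utf1* UMIs of late E7.5 replicate 2.

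*Slc7a3* (28.7 CPM) was likewise second to late E7.5 replicate 1 (29.9), and *Pim2* (81.7 CPM) lay below late E7.5 replicate 1 and E7.75 replicate 2. *Pou3f1*, at 7.26 CPM, lay below 3 of the 4 late controls. The late KO embryo still had less of every member than the E7.0 KO embryo, by 0.68 (*Nanog*) to 2.28 (*Utf1*) on the log2 scale.

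None of the 7 differences passed the test, and the share of all 18290 genes that did was 0.0328% (6 genes, all higher in KO). The log2 difference between the late KO embryo and the 4 late controls was 2.13 ± 0.92 (SE) for *Nanog* (unadjusted p = 0.0393, adjusted p = 0.628 by edgeR) and 1.55 ± 0.50 for *L1td1* (unadjusted p = 0.00908, adjusted p = 0.493). For *Utf1* it was 1.42 ± 0.91, for *Slc7a3* 1.01 ± 0.65, for *Pim2* 0.57 ± 0.67, for *Pou5f1* 0.53 ± 0.86 and for *Pou3f1* -0.37 ± 0.63, with adjusted p between 0.709 and 0.884. The median of the 7 was 1.01, beside -0.05 over all genes. In simulated counts of this design 29.2% of genes changed by 2 log2 units and 1.98% of those changed by 1 unit were recovered. Most changes of these sizes were thus missed in the simulation, which drew on all genes and not on the members alone.

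The order depended on which late control was set beside the KO embryo. Against E7.75 replicate 1, of the same experiment and depth, all 7 genes were higher in the KO embryo, by 0.31 to 4.33 log2 (median 2.43). Against late E7.5 replicate 2, 6 of 7 were higher, against E7.75 replicate 2, 4 of 7, and against late E7.5 replicate 1, 2 of 7 (*Nanog* and *L1td1*). Against the 2 late E7.5 controls alone the difference was 1.64 for *Nanog* (adjusted p = 0.653) and 1.14 for *L1td1* (adjusted p = 0.545). Without E7.75 replicate 1 the number of genes called rose from 6 to 338, still with none of the 7 (adjusted p of 0.346 for *Nanog* and 0.190 for *L1td1* by edgeR). With cells thinned to 2000 UMIs the difference was 2.39 for *Nanog* (adjusted p = 0.646 by edgeR) and 1.63 for *L1td1* (adjusted p = 0.489). With experiment as a covariate it was 4.15 for *Nanog*, 4.34 for *Utf1*, 2.58 for *L1td1*, 2.44 for *Pou5f1*, 1.58 for *Pim2*, 1.53 for *Slc7a3* and 0.32 for *Pou3f1*, with adjusted p between 0.253 and 0.968 by edgeR. None of the 7 passed in either fit.

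Over all stages together 21 of 16997 genes passed (0.124%), *Mesp1* among them (-10.67 log2, adjusted p = 0.0112 by edgeR), and none of the 7. The largest member difference was 1.03 ± 0.62 for *Nanog* (adjusted p = 0.486) and the smallest p that of *L1td1*, 0.87 ± 0.32 (unadjusted p = 0.0175, adjusted p = 0.273). The late difference minus the early difference was tested as well, with 0% of 18290 genes past the threshold by edgeR, 552 at an unadjusted p under 0.05 and 1 by DESeq2, and with a median of 1.37 over the members. None of the genes of the 5 lists passed in any KO comparison, with late medians of -0.49 for general pluripotency, -0.63 for naive, 0.71 for formative and primed epiblast, 0.36 for early germ cell and 2.17 for primitive streak genes.

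Most of the pluripotency gene RNA of the late KO embryo came from 1 cluster, cluster 1, which held 2394 of its cells (18.6%). It supplied 55.4% of the *Pou5f1*, 51.8% of the *Nanog*, 74.4% of the *Utf1*, 54.2% of the *L1td1*, 72.9% of the *Pim2*, 75.8% of the *Slc7a3* and 77.5% of the *Pou3f1* UMIs of this embryo. The cluster was named neural ectoderm-like from counts pooled over its cells of all embryos. The KO cells in it went against that name in most of the neural markers. Of 6 neural markers, 4 were near 0 in them (*Sox1* 0.81, *Pax6* 1.21, *Sox21* 0.71 and *Rax* 3.13 CPM). The 6 summed to 55.7 CPM, against 60.8 CPM in late E7.5 replicate 1, where the same 4 were at 0, and 217 to 373 CPM in the other 3 late controls. Most of the 55.7 CPM in the KO cells came from the remaining markers, *Hesx1* and *Six3*.

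The same KO cells had *Tdgf1* at 133 CPM, which was at most 0.35 CPM in cluster 1 of the late controls, and *Fgf5*, a marker of the primed epiblast, at 39.3 CPM against 2.08 to 15.2 CPM. The 7 streak markers summed to 272 CPM in them, with *T* at 57.8 and *Eomes* at 69.0 CPM, against 30.96 to 53.4 CPM in the late controls. The 6 epiblast markers, *Tdgf1* and *Fgf5* among them, summed to 856 CPM. This lay below late E7.5 replicate 1 (1496) and E7.75 replicate 2 (884) and above late E7.5 replicate 2 (272) and E7.75 replicate 1 (228). The remaining epiblast markers are not given one by one. Late control cells of cluster 1 numbered 88 and 940 at late E7.5 and 1870 and 228 at E7.75. In late E7.5 replicate 2 and E7.75 replicate 2 most neural ectoderm-like cells lay in cluster 19. The median UMIs per cell in cluster 1 were 5559, 1394, 4528 and 8130.5 in these controls in turn and 4035.5 in the KO cells. Over whole libraries they were 19739, 14063, 3926 and 19573 in the controls and 3827 in the KO embryo. Outside experiment 5 the cluster thus held shallow cells of deep libraries. Whether these are the same kind of cell as the KO cells was not tested. No cell type name is given to the KO cells of cluster 1.

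*Pou5f1* was at 732 CPM in the KO cells of cluster 1 (exact Poisson interval 715 to 749, counting error only), and at 963, 135, 56.7 and 310 CPM in cluster 1 of the 4 late controls. *Nanog* was at 49.6 CPM against 40.5, 12.8, 4.40 and 19.9 CPM, and *L1td1* at 142 CPM against 44.2, 14.6, 6.83 and 35.2 CPM. *Utf1* was at 231 CPM against 223, 17.2, 3.47 and 61.9 CPM. The 88 cells of late E7.5 replicate 1 lay nearest to the KO cells for all 4 genes, above them for *Pou5f1* and below them for the other 3.

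The remaining *Pou5f1* UMIs of the late KO embryo were spread over streak-like cells (10.4%), the cells of unnamed clusters (9.42%, mainly cluster 2) and lateral plate and extra-embryonic mesoderm-like cells (7.63%). Streak-like cells numbered 1602 in this embryo, against 59 and 17 at late E7.5 and 3 and 2 at E7.75, and had *Pou5f1* at 184 CPM beside 243 and 65.3 CPM. Only 29 cells were epiblast-like (*Pou5f1* 964 CPM, *Nanog* 116 CPM and *L1td1* 321 CPM). The 27 KO cells that fell with the caudal epiblast-like clusters had no UMI of *Nkx1-2*, *Cdx1* or *Wnt8a*. They are not counted as that class here, a choice that rests on part of its markers. So few cells of a shallow library cannot show that these genes are absent. The class markers *Cdx2*, *Fst* and *Wnt3a* are not given for them.

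In the late KO embryo *Nanog* and *L1td1* lay above all late controls in most classes, not in cluster 1 alone. The count took 10 classes and left out the neural ectoderm-like and caudal epiblast-like ones. *Nanog* was above every late control with at least 10 cells of the class in 8, *L1td1* in 9, *Utf1* and *Pim2* in 6, *Slc7a3* in 5, *Pou5f1* in 1 and *Pou3f1* in 0. Such controls numbered 4 in 8 of the classes, 3 in blood-like and 2 in streak-like cells. Over all genes tested in these classes 12.6% of levels lay above and 39.9% below every such control. *Pou3f1* lay below all of them in 5 of the 10 classes, and *Utf1*, *L1td1* and *Slc7a3* in 1 each. *Nanog* was at 64.2 CPM in node and notochord-like cells against 0 to 11.8 CPM, and at 7.98 CPM in lateral plate and extra-embryonic mesoderm-like cells against 0.560 to 1.70 CPM. A *Nanog* UMI was found in 14.3% of the node and notochord-like KO cells after thinning and in 0% to 0.862% of those of the late controls. Blood-like cells should lack the genes, and that their UMIs are free RNA was not tested. *Nanog* was at 2.51 CPM in those of the KO embryo (8 UMIs, exact Poisson interval 1.08 to 4.95) and 0 to 0.587 CPM in those of the late controls, and *Utf1* at 6.90 CPM (4.33 to 10.5) against 0 to 2.35 CPM. *L1td1* (3.77 against 1.41 to 2.86 CPM), *Pim2* (10.7 against 2.86 to 10.4 CPM) and *Pou5f1* (28.9 against 2.86 to 38.2 CPM) differed by less than their counting error or lay within the range. Blood-like cells are among the classes counted above for *Nanog*, *L1td1*, *Utf1* and *Pim2*.

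Tests within classes called no member. In those 10 classes, where 0% of all genes passed in 7 and 0.00687% (definitive and anterior visceral endoderm-like), 0.115% (streak-like) and 0.0409% (lateral plate and extra-embryonic mesoderm-like) in the others, 0 of 65 member tests did, with 17 at an unadjusted p under 0.05 and 55 differences above 0, beside 7.86% and 44.2% of all gene tests in these classes. The smallest adjusted p was that of *L1td1* in streak-like cells (2.31 ± 0.61 log2, adjusted p = 0.154 by edgeR), and in node and notochord-like cells *Nanog* differed by 4.44 ± 1.05 (adjusted p = 0.309). The 10 classes share the same 1 KO embryo, so the differences are not independent of each other.

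**Figure D5:**
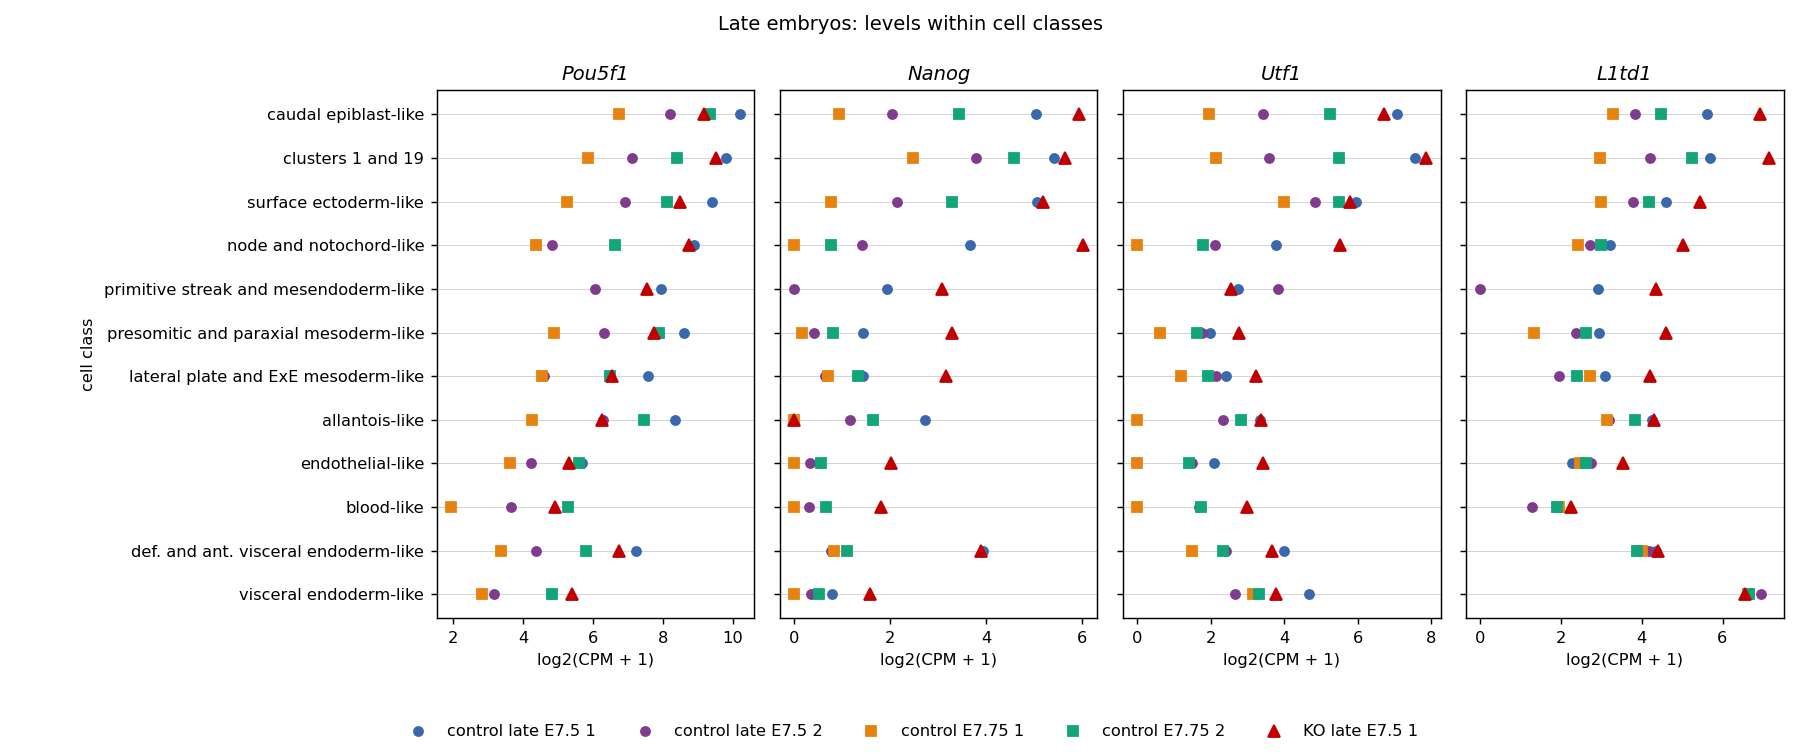
Levels within cell classes, as log2(CPM + 1), of *Pou5f1*, *Nanog*, *Utf1* and *L1td1* in the 4 late controls (circles for late E7.5, squares for E7.75) and the late KO embryo (triangles). The triangles lie right of all other points in most rows for *Nanog* and *L1td1* and within them for *Pou5f1* in all rows but visceral endoderm-like. The rows of caudal epiblast-like cells and of clusters 1 and 19 hold KO cells with some, but not all, markers of the row's class seen at or near 0. ExE stands for extra-embryonic.

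Cells that kept several members made up a larger share of the late KO embryo than of 3 of the 4 late controls. Cells with 3 or more of the 7 genes made up 8.79% of the late KO embryo (943 cells, exact interval 8.26% to 9.34%), and 786 of them (83.4%) lay in clusters 1 and 19, nearly all of whose KO cells belong to cluster 1. In late E7.5 replicate 1 (9.41%) the same kind of cell was mainly caudal epiblast-like. The share of blood-like KO cells with 3 or more genes was 0.422%.

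Candidate germ cells still had *Pou5f1* and *Nanog* UMIs at the last age, at lower levels than up to E7.0. At a finer clustering, 1 class carried markers of primordial germ cells, the founders of the germ line, and it is named from those markers only. Its cells had *Pou5f1* at 1366 to 1741 CPM in controls up to E7.0, at 943 CPM at early E7.5 and at 1049, 454, 248 and 779 CPM in the late controls. No level was taken in E6.0 replicates 2 and 3. The level at E7.75 replicate 1, a shallow library, rests on 46 cells and few *Nanog* UMIs. *Nanog* was at 65.8 to 191 CPM up to E7.0, at 19.6 CPM at early E7.5 and at 28.3, 14.96, 19.098 and 23.3 CPM in the late controls, all above the whole-embryo levels of the same embryos.

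In the late KO embryo 241 cells fell in this class, with *Pou5f1* at 560 CPM, within the late control range, and *Nanog* at 66.6 CPM, above all 4 late controls. *Dppa3*, a germ cell marker, was at 43.3 CPM in these KO cells, below the late controls (77.5 to 169 CPM). The other 3 germ cell genes looked at lay within the late control range, *Prdm1* at 24.3 CPM (12.7 to 28.4), *Nanos3* at 25.4 CPM (9.96 to 70.03) and *Ifitm3* at 921 CPM (446 to 1496). *Ifitm3* was not among the markers that named the class. Its further markers *Prdm14*, *Tfap2c* and *Dnd1* are not given here for these cells.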

How the data were processed

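The authors made 10x Genomics 5′ libraries from whole embryos and processed the reads with Cell Ranger 3.0.2 against mm10, to which the reporter sequences were added. The deposited values are whole-number UMI counts per gene and cell barcode, 1 matrix per embryo. Groups came from the sample labels. The labels do not say that replicates differ in litter, so p-values measure the spread between embryos. In the early, middle and late KO tests, also within classes, 1 KO embryo stood for its group. Their SE and p-values therefore hold no spread between KO embryos. They rest on the spread of controls within a stage, which mixes ages, and assume that the lone KO embryo varies like the controls.

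Barcodes with 200 to 7000 genes, at most 50000 UMIs and at most 10% mitochondrial UMIs were kept. Counts were summed per embryo and tested with edgeR 4.0.16 in R 4.3.3 (quasi-likelihood test, TMM scaling, its default filter on low counts, Benjamini-Hochberg threshold of 0.05). The SE is the absolute log2 change divided by the root of F. The age model took the labelled day, and the KO models took the 3 stages. DESeq2 1.42.0 was an alternative. Others left out embryos in turn, doublets (9988 cells, called against simulated doublets but kept otherwise), extra-embryonic cells or experiments, thinned cells to 2000 UMIs, capped cells at 6300 genes, or took experiment or day as a covariate. Scripts were tested on simulated data with 200 changed genes.

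Cells were clustered on 2000 variable genes and 50 components, matched between experiments by mutual nearest neighbours (20 neighbours, Leiden resolution 1, finer at 2). A cluster was named if at least 3 of a type's markers were 2-fold higher in it, a rule set after the clusters were seen, and 11613 cells (12.4%) stayed unnamed. Classes with under 10 cells in an embryo were not used. Intervals are 95% exact ones for counting error only.

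Named genes are the 7 members, up to 2 genes per direction and comparison from each of 5 gene lists with the largest change past the threshold, the 8 genes most like the members, and *Mesp1*. Other genes, such as *Sox2* and the markers of cluster 1, were named after their values were seen. The members and lists were chosen with earlier results of these data known.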

Additional observations from a re-analysis of the deposited data

Results flagged for a closer look

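In 3 of 14 groups of 4 or more embryos tested for a sample far from the others (Dixon's criterion, which chance meets in about 1 group in 20), the embryo was control E6.0 replicate 1, among the 5 early controls. It had *Pou5f1* at 1320 CPM (the others 778 to 925), *Utf1* at 807 CPM (314 to 379) and *Slc7a3* at 178 CPM (58.6 to 90.3). Without this embryo the age calls of *Utf1* and *Slc7a3* held and that of *Pou5f1* was lost.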

How the results depend on the processing

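No paired analysis was possible because replicate numbers restart at each age and KO and control embryos share at most 1 number at an age. The block that could be fitted was the experiment, since experiments 5 and 8 hold both genotypes (at different ages), and it is given as a covariate. Of all genes, 4007 changed with age, and 1469 did with cells thinned to 2000 UMIs, 827 in experiment 7 alone, 1001 with experiment as a covariate and 2352 without the *Rps2-ps13*-rich libraries (an alternative chosen after seeing the data). For KO over stages, 21 genes became 612 with DESeq2, 11 without doublets, 35 without extra-embryonic cells, 0 with experiment as a covariate, 263 with the day in place of stage, 0 with same-age controls and 3 without the *Rps2-ps13*-rich libraries. For late KO, 6 genes became 122 with DESeq2, 1 with the covariate, and 0 with late E7.5 controls only or without the *Rps2-ps13*-rich libraries. From 0 genes, DESeq2 gave 23 in the middle, 2 in the early and 1 in the late-minus-early comparison, and the covariate 1 in each. Leaving out embryos in turn gave 2898 to 3865 genes for age, 0 to 35 over stages, 2 to 338 late (338 without E7.75 replicate 1), 0 to 0 in the middle, 0 to 1 early and 0 to 0 for late minus early. Without the late KO embryo no late comparison exists. Of the 21 pairs of slopes, 10 differed over the 12 controls and 0 in experiment 7 alone, where a single pair could not pass alone. The causes were not tested.

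No KO difference of a member was called in the main fits, and these changed sign (log2). Over stages, *Pou5f1* was -0.079 and *Pim2* -0.11 with same-age controls and *Pou3f1* 0.14 with the covariate. With the covariate, late *Pou3f1* was 0.32, late-minus-early *Pou3f1* 0.17, middle *Nanog* -0.17, *Utf1* -0.0096 and *Pim2* 0.40, and early *Pou5f1* 0.012, *Pou3f1* 0.15 and *Pim2* 0.028. Middle *Pim2* (-0.0044) was 0.0041 with DESeq2, 0.087 thinned, 0.0074 without doublets, 0.048 without extra-embryonic cells, 0.036 at 6300 genes and 0.20 without the *Rps2-ps13*-rich libraries, where late-minus-early *Pou3f1* was 0.20. Early *Pou5f1* was 0.030 thinned. Leaving out embryos in turn, the ranges that crossed 0 were, over stages, -0.019 to 0.51 for *Pou5f1*, -0.080 to 0.92 for *Utf1*, -0.11 to 0.31 for *Pim2* and -0.17 to 0.65 for *Slc7a3*, each negative only without the late KO embryo. In the middle stage they were -0.21 to 0.33 for *Pou5f1*, -0.084 to 0.72 for *Utf1*, -0.40 to 0.34 for *Pim2* and -0.20 to 0.63 for *Slc7a3*, each lowest without early E7.5. They were -0.16 to 0.016 for early *Pou5f1*, -0.22 to 0.027 for early *Pou3f1* and -0.44 to 0.081 for late-minus-early *Pou3f1*.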
